A study of Homo sapiens with 6 samples.

Results

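The kinetochore and spindle checkpoint genes were examined in K562 cells after induction of ERG. The members were 40 genes listed by name for their role in cell division, and the rule that finds their probe sets uses no measured value. The list itself was chosen with earlier results of these data known. Of these, 39 were measured among 19775 genes, by 82 of 54613 probe sets. CENPP was represented only by a probe set that also names other genes and was not measured by itself. CENPJ is listed under its current symbol CPAP in the annotation and is called CENPJ here.

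K562 is a human erythroleukemia cell line that was derived from chronic myeloid leukemia. Its RNA was hybridized to 6 arrays of the type Affymetrix U133 Plus 2.0. They came from 3 stably transfected pTRE-ERG clones, CL4, CL9 and CL46, which all carry an ERG gene that doxycycline (DOX) switches on (the construct is called pTRE ERG3 in the culture protocol). The ERG-induced group held 3 arrays, 1 of each clone, from cells given DOX daily at 1 µg/ml for 8 days, and the non-induced group held 3 arrays of the same clones without DOX. The legend of the array experiment gives a shorter time than the methods and the labels do. DOX was given to all induced cultures and to none of the others, so that changes due to ERG and changes due to DOX itself cannot be told apart. Each clone has 1 array per condition, so the spread measured here is that between single arrays of different clones. Differences between clones, cultures and arrays cannot be told apart.

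The kinetochore is the protein assembly on the centromere that captures spindle microtubules. An inner layer, the constitutive centromere-associated network (CCAN), sits on nucleosomes that hold CENPA, and the outer KMN network binds the microtubules. Kinetochores without a microtubule feed the spindle assembly checkpoint, which delays anaphase by holding back the anaphase-promoting complex. Many of these genes are transcribed mainly in G2 phase and mitosis, under control of the DREAM complex, B-MYB and FOXM1, and their RNA is abundant in dividing leukemia cells.

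The promoters of 5 members are shown as examples, picked by their differences. MKI67, CENPF and CENPE were lower after induction, and the differences of PLK1 and CDCA8 lay near 0. Known motifs are marked, but genes picked in this way cannot show the part of a motif, which was not tested. The stretch of CENPE holds none of the 4 motifs searched. Each line holds the 120 bases before the first listed start site in RefSeq (GRCh38.p14), 5′ to 3′ on the strand of the gene. Capitals mark TTTGAA and TTCGAA, forms of the cell cycle homology region read by DREAM, CCAAT, the NF-Y motif, and CCGGAA, the core of ETS factor sites, on either strand, and neighbouring motifs can overlap.
MKI67, chr10:128126424-128126543, minus strand: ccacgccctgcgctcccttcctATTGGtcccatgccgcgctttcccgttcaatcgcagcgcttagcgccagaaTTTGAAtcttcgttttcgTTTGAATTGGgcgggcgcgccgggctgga
CENPF, chr1:214603075-214603194, plus strand: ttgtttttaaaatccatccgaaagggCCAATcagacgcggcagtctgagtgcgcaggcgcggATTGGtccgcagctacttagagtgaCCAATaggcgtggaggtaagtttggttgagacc
CENPE, chr4:103198344-103198463, minus strand: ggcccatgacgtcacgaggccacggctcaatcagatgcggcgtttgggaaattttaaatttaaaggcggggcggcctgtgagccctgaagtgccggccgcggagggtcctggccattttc
PLK1, chr16:23678769-23678888, plus strand: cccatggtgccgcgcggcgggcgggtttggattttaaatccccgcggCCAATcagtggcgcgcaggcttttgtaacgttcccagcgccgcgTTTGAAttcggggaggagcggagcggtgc
CDCA8, chr1:37692396-37692515, plus strand: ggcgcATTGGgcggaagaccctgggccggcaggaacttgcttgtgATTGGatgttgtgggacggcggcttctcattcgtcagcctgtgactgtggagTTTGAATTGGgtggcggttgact
In windows of 300 bases, which reach from 250 bases before the start to 50 after it, 30 of the 39 measured members had an entry. A motif counted in a window can lie outside the 120 bases shown, as TTTGAA does in CENPF. TTTGAA or TTCGAA was held by 18 of them, 6 of 11 that were called lower and 12 of 19 that were not, against 16.6% of the 27305 promoters in the table. CCAAT was held by 21 (7 called lower and 14 not), against 35.7% of all promoters. CCGGAA was held by 7 (3 called lower and 4 not), against 17.6% of all promoters. A match is a description of the letters only, and factor binding was not measured here.

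The deposited values are ratios of each probe set to its own median over the 6 arrays. They hold no brightness, so levels of different genes cannot be compared, and the presence of the erythroid markers that define K562 cannot be checked. Their log2 values were averaged over the probe sets that name the gene and no other. All differences below are log2 values of ERG-induced minus non-induced arrays with the standard error (SE) from limma, and adjusted p-values are limma's with Benjamini-Hochberg adjustment over all genes. A gene was called where the fold was at least 2 and the unadjusted p was under 0.05, the thresholds of the study. They leave the number of genes uncorrected, and no member passed an adjusted p of 0.05 (14 members had an unadjusted p under 0.05). The lowest adjusted p of a member was 0.192. Over all genes 0 passed the adjusted threshold, 2544 had an unadjusted p under 0.05, and the lowest adjusted p was 0.101. Calls therefore rank the genes and are used here as a description.

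ERG itself had log2 ratios of 0.15, -0.93 and -0.71 in the ERG-induced arrays of CL4, CL9 and CL46 and of 1.50, -0.13 and -0.57 in the non-induced arrays. The groups overlapped, and the difference was -0.76 (SE 0.63, adjusted p = 0.671). Where its 4 probe sets lie relative to the introduced sequence is unknown, and the labels cannot be checked with them. Control probe sets for 18S ribosomal RNA were higher in the induced arrays by 1.21, 0.59 and 0.82 in CL4, CL9 and CL46. The difference between the 3′ and 5′ probe sets of ACTB changed by -0.15, 0.59 and 0.24, and that of GAPDH by 0.01, 0.06 and -0.01. The part of these signs of RNA quality in the results was not tested.

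Members called lower after ERG induction were 2 of 2 corona genes, 3 of 12 of the inner kinetochore and 1 of 8 of the KMN network. The others were 2 of 2 shugoshins, 2 of 5 genes of the spindle pole, mitotic kinases and centriole, and MKI67. In all, 11 of 39 members (28.2%) were called lower, against 6.32% of all genes, and 0 were called higher, against 3.12% of all genes. Single roles hold few genes, and their counts were not tested against these shares or against each other. The same rule called 23 of 82 member probe sets lower (28.0%), against 8.16% of all probe sets, and 0 higher, against 2.82%. The lower probe sets numbered 13 without CL9 and 11 without CL46. All 3 induced arrays lay below all 3 non-induced arrays in 20 of 39 members (51.3%), against 13.6% of all genes. The median difference of the members was -0.41, and that of all genes was -0.03. Because the members were chosen with earlier results of these data known, these contrasts are a description only. In RNA from whole cultures, fewer dividing cells and less RNA per cell cannot be told apart. By a dye dilution assay at a shorter time, the study reported faster proliferation of ERG-induced than of non-induced cells. How that relates to these arrays was not tested. The decrease was not shared by all members, since 12 of 39 lay within 0.20 of 0 and 8 of 39 lay above 0.

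**Figure D1:**
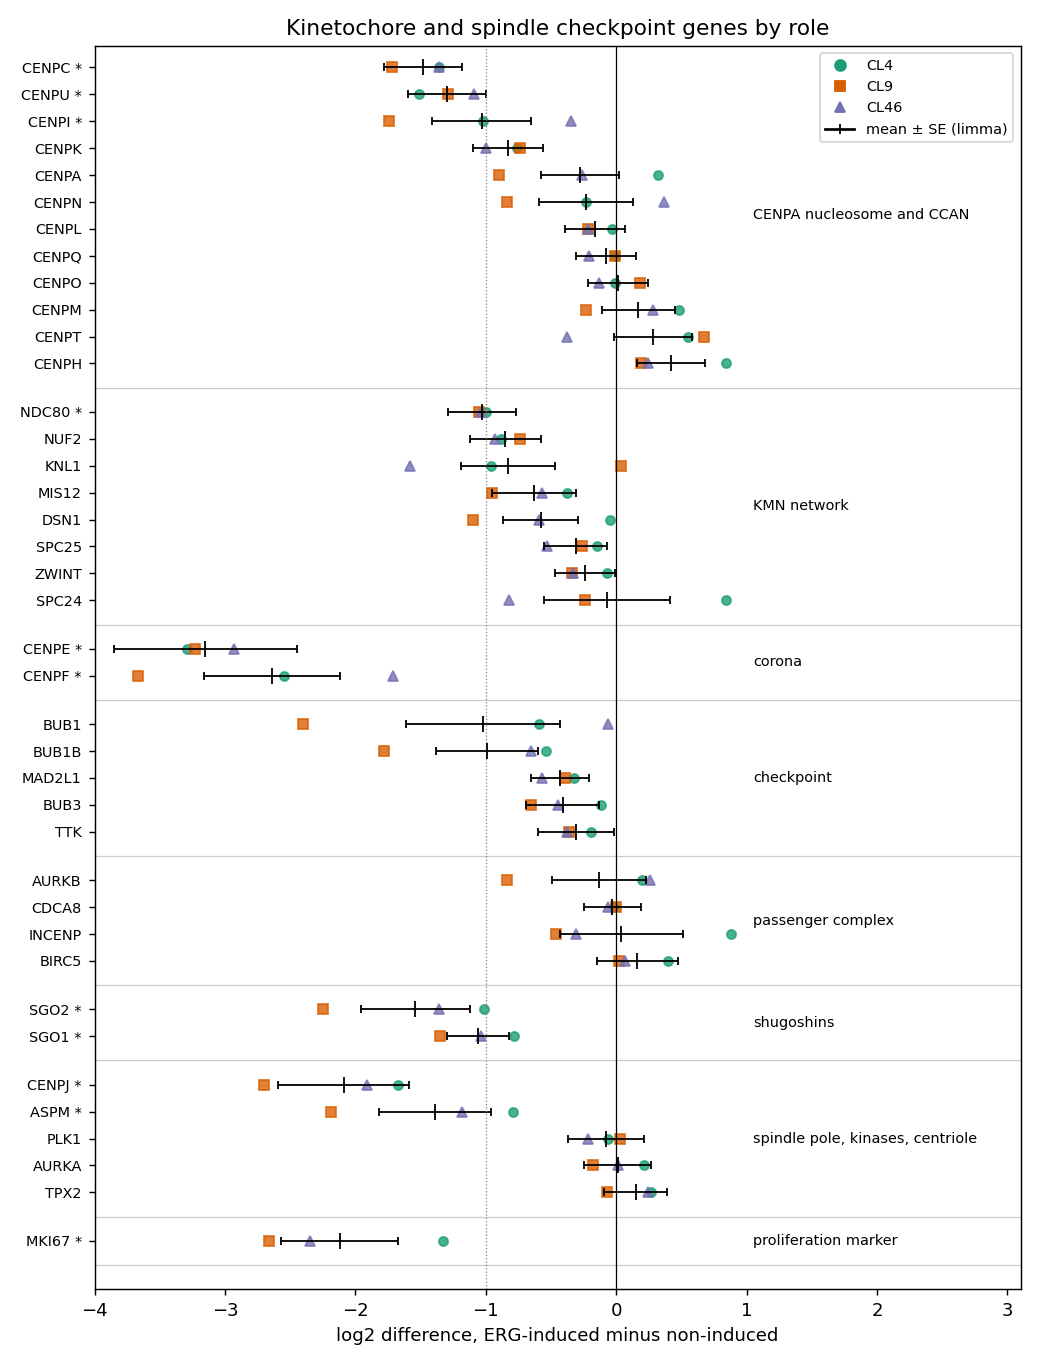
The log2 difference of ERG-induced minus non-induced arrays (x axis) is plotted for the 39 measured members, ordered by role, with a coloured point per clone, a bar for the mean and SE, a dotted line at a fold of 2 and an asterisk for each of the 11 genes called lower. CENPE and CENPF lie farthest to the left, and the 4 genes of the passenger complex lie between -0.13 and 0.16.

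CENPE and CENPF, the large proteins of the fibrous corona, showed the largest decreases of the 39 members. CENPE is the kinesin that moves chromosomes along microtubules toward the spindle equator. Its log2 ratios were -0.78, -2.72 and -1.47 in the induced arrays of CL4, CL9 and CL46 and 2.50, 0.50 and 1.46 in the non-induced arrays. The groups did not overlap, and the 3 clones differed by -3.29, -3.23 and -2.93, close to each other even though CL9 was the lowest clone in both conditions. CENPE fell 8.86-fold (log2 difference -3.15, SE 0.70, adjusted p = 0.216), and it rests on 1 probe set.

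CENPF binds dynein regulators at the kinetochore and nuclear envelope. Its induced arrays read -1.86, -3.26 and -1.36 and its non-induced arrays 0.69, 0.41 and 0.35. The non-induced clones lay close together and the induced clones spread, with CL9 the lowest. CENPF fell 6.25-fold (log2 difference -2.64, SE 0.52, adjusted p = 0.192), and its 3 probe sets were all called lower, at -3.37, -2.56 and -2.00. In 1 of them, CL46 differed by only -0.63, where CL4 and CL9 differed by -4.91 and -4.58.

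MKI67, which encodes Ki-67, the surfactant-like coat protein of mitotic chromosomes and a standard marker of proliferation, fell 4.33-fold. It read -0.59, -2.22 and -1.65 in the induced arrays and 0.74, 0.45 and 0.70 in the non-induced arrays. The groups did not overlap, and the least decrease was in CL4. The difference was -2.12 (SE 0.45, adjusted p = 0.209). All 4 of its probe sets were called lower, at -1.71, -2.31, -2.48 and -1.96.

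**Figure D2:**
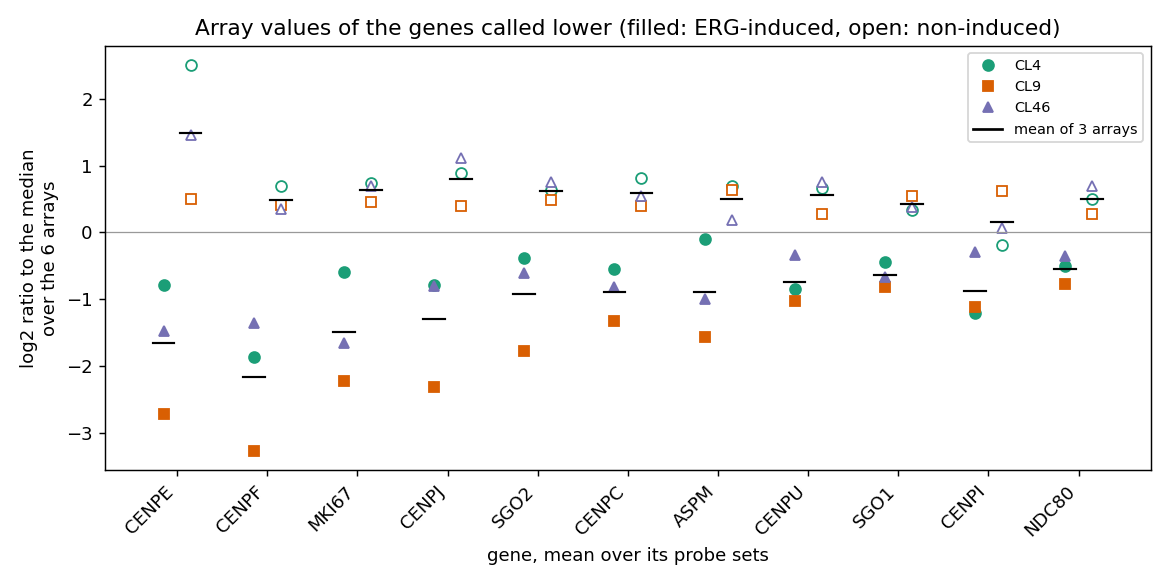
The log2 ratio to the median over the 6 arrays (y axis) is plotted for the 11 genes called lower (x axis), with filled points for ERG-induced and open points for non-induced arrays, a shape per clone and a line at the mean of 3 arrays. In each gene all filled points lie below all open points, and CL9 is the lowest filled point in 10 of the 11 genes, all but CENPI.

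In the inner kinetochore, 3 of 12 measured genes (25.0%) were called lower, against 6.32% of all genes, and the median difference was -0.19. CENPC, which ties the CENPA nucleosome to the outer kinetochore, read -0.55, -1.32 and -0.82 in the induced arrays and 0.81, 0.40 and 0.54 in the non-induced arrays. Each clone moved by a like amount, -1.36, -1.72 and -1.36. CENPC fell 2.79-fold (log2 difference -1.48, SE 0.30, adjusted p = 0.196), and it rests on 1 probe set.

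CENPU, a CCAN subunit that recruits PLK1, read -0.85, -1.02 and -0.33 in the induced arrays and 0.66, 0.27 and 0.76 in the non-induced arrays. CL46 was the highest clone in both conditions. Its difference was -1.30 (SE 0.30, adjusted p = 0.227), and all 3 probe sets were called lower. Without CL4 the difference was -1.19 and the call was lost.

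CENPI, which works in the CCAN with CENPH and CENPK, read -1.21, -1.11 and -0.29 in the induced arrays and -0.19, 0.62 and 0.06 in the non-induced arrays. The gap between the highest induced and the lowest non-induced array was small. The difference was -1.03 (SE 0.38, adjusted p = 0.350), the highest adjusted p among the called members. Only 1 of its 4 probe sets was called lower (-1.38, SE 0.32). The others gave -0.78, -1.98 (SE 1.49) and 0.01, and the call was lost in 6 of the 10 alternatives, among them the fit with the clone as a replicate block (-1.03, with the p threshold missed).

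CENPK had a difference of -0.83 (SE 0.27, adjusted p = 0.309), below a fold of 2, with all induced arrays below all non-induced arrays. The other 8 CCAN and nucleosome genes were not called. CENPA, the histone variant that marks the centromere, differed by -0.28 and split by clone (0.32, -0.90 and -0.26). The remaining differences ran from -0.23 in CENPN through -0.16 in CENPL, -0.08 in CENPQ, 0.01 in CENPO, 0.17 in CENPM and 0.28 in CENPT to 0.42 in CENPH. CENPH was above 0 in all 3 clones (0.84, 0.19 and 0.24) but was not called (SE 0.26, adjusted p = 0.566), and it rests on 1 probe set.

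In the KMN network 1 of 8 genes (12.5%) was called lower, against 6.32% of all genes, and the median difference was -0.61. All 8 lay below 0, against 51.8% of all genes, though SPC24 lay at 0.03 with centred arrays and at 0.05 after quantile normalization. NDC80, the microtubule-binding subunit that names its complex, read -0.50, -0.77 and -0.35 in the induced arrays and 0.50, 0.28 and 0.70 in the non-induced arrays. NDC80 rests on 1 probe set, and the 3 clones gave nearly the same difference (-1.00, -1.05 and -1.04). The difference was -1.03 (SE 0.26, adjusted p = 0.243), just past a fold of 2, and it was -0.93 once arrays were centred on their medians and -0.85 after quantile normalization, where the fold threshold was missed. Without CL4 it was -1.05, with the p threshold missed.

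NUF2, the partner of NDC80, gave -0.85 (SE 0.27, adjusted p = 0.306), and CL4, CL9 and CL46 gave -0.88, -0.74 and -0.93. SPC25 and SPC24, which join the complex to the inner layers, gave -0.31 and -0.07. The mean of SPC24 split by clone (0.84, -0.24 and -0.82), but only 1 of its 2 probe sets did so (1.51, -0.50 and -1.80). The other gave 0.18, 0.02 and 0.16. The MIS12 complex genes MIS12 and DSN1 gave -0.63 and -0.58, and ZWINT, which links KNL1 to the checkpoint, gave -0.24.

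KNL1, the scaffold that docks BUB proteins, depended on how its 4 probe sets were joined. Its mean read -0.87, -0.20 and -1.20 in the induced arrays and 0.09, -0.25 and 0.38 in the non-induced arrays. The groups overlapped in CL9, and the difference was -0.83 (SE 0.36, adjusted p = 0.413). A single probe set was called lower (-1.64, SE 0.38), and 2 others gave -0.87 and -1.19. The fourth, with a median ratio below 1 and 3.74 in CL9, gave 0.37 (SE 1.27). Without it KNL1 was called lower at -1.24, with the median over probe sets at -1.04, and without CL9 at -1.27. Without CL46 it was -0.46 and without CL4 -0.77, and it was called in neither.

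None of the 5 spindle checkpoint genes was called, against 6.32% of all genes called lower and 3.12% called higher. With 5 genes, a count of 0 cannot be told from these shares. All 5 lay below 0, against 51.8% of all genes, and 4 had all induced arrays below all non-induced arrays, against 13.6% of all genes. BUB1, the kinase that starts checkpoint assembly on KNL1, had a fold of 2.02 that differed widely by clone, with -0.59 in CL4, -2.40 in CL9 and -0.06 in CL46 (difference -1.02, SE 0.59, adjusted p = 0.537). Its 5 probe sets lay between -1.51 and -0.61, and 1 of them ran from -4.01 in CL9 to 3.06 in CL46. BUB1B, which encodes BUBR1 of the mitotic checkpoint complex, gave -0.99 (SE 0.39, adjusted p = 0.374) at a fold of 1.98, also led by CL9 (-0.54, -1.78 and -0.65). BUB1B missed the fold threshold and BUB1 the p threshold.

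The other checkpoint genes moved less. MAD2L1, which encodes MAD2, the inhibitor of the CDC20 activator, gave -0.43 (SE 0.22) with -0.32, -0.39 and -0.57 in the clones. BUB3, the adaptor of BUB1 and BUBR1, gave -0.41 (SE 0.28) over 6 probe sets. TTK, the MPS1 kinase that starts the checkpoint signal, gave -0.31 (SE 0.29).

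**Figure D3:**
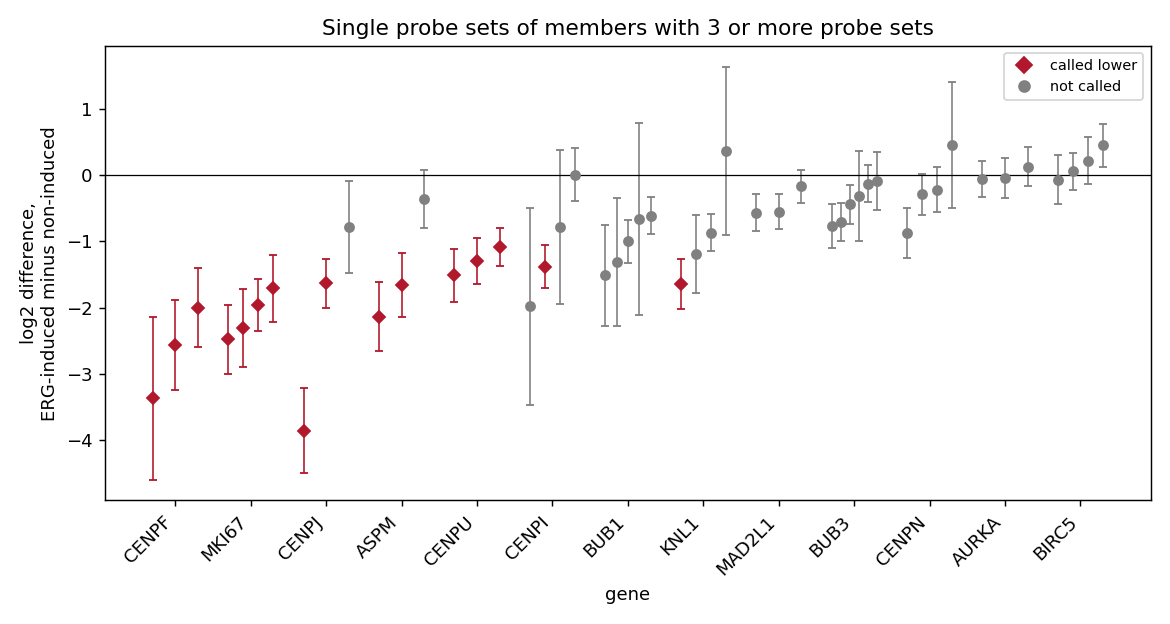
The log2 difference of ERG-induced minus non-induced arrays (y axis, with SE) is plotted for each probe set of the 13 members with 3 or more probe sets (x axis), red where the probe set was called lower. All probe sets of CENPF, MKI67 and CENPU are red, CENPI and KNL1 have 1 red probe set each, and the 5 probe sets of BUB1 are grey.

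The chromosomal passenger complex corrects faulty attachments through the kinase Aurora B. Of its 4 genes 0 were called, against 6.32% of all genes called lower and 3.12% called higher. With 4 genes, that count cannot be told from these shares. AURKB gave -0.13, CDCA8 (borealin) -0.03, INCENP 0.04 and BIRC5 (survivin) 0.16, and the lowest adjusted p was 0.870. The mean of AURKB split by clone (0.20, -0.84 and 0.26), but only 1 of its 2 probe sets did so (0.43, -1.44 and 0.65). The other gave -0.02, -0.24 and -0.14. INCENP, with 1 probe set, split as well (0.88, -0.46 and -0.31). CDCA8 was almost level in each clone (-0.02, 0.00 and -0.06).

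Both shugoshins, which shield centromeric cohesin and help to place the passenger complex, were called lower. SGO2 read -0.38, -1.77 and -0.61 in the induced arrays and 0.63, 0.48 and 0.75 in the non-induced arrays. Its difference was -1.54 (SE 0.42, adjusted p = 0.262), and without CL46 it was -1.63 with the p threshold missed.

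SGO1 read -0.44, -0.81 and -0.67 in the induced arrays and 0.34, 0.55 and 0.38 in the non-induced arrays. The arrays of each group lay close together and the groups did not overlap. The difference was -1.06 (SE 0.24, adjusted p = 0.217), just past a fold of 2. It was -0.96 with centred arrays, -0.89 after quantile normalization and -0.91 without CL9, where the fold threshold was missed. Both probe sets of each shugoshin were called lower.

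Among the 5 genes of the spindle pole, mitotic kinases and centriole, 2 (40.0%) were called lower, against 6.32% of all genes. CENPJ, a regulator of centriole length, read -0.78, -2.31 and -0.80 in the induced arrays and 0.89, 0.39 and 1.11 in the non-induced arrays. It fell 4.26-fold (log2 difference -2.09, SE 0.50, adjusted p = 0.235). Of its 3 probe sets, 2 were called lower (-3.86 and -1.63), and the third gave -0.78 with nearly all of it in CL9 (-0.03, -2.14 and -0.17).

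ASPM, which focuses microtubule minus ends at the spindle pole, read -0.10, -1.56 and -1.00 in the induced arrays and 0.69, 0.63 and 0.18 in the non-induced arrays. The difference was -1.39 (SE 0.43, adjusted p = 0.301), with 2 of 3 probe sets called lower (-2.14 and -1.66) and the third at -0.36. The call was lost without CL9 (-0.98), without CL46 (-1.49) and without the probe sets that can match several transcripts (-1.01).

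The kinases PLK1 and AURKA, which drive spindle assembly, gave -0.08 and 0.01, and TPX2, the activator of Aurora A, gave 0.15. The difference farthest from 0 in any clone of these 3 genes was 0.27, in TPX2 of CL4. PLK1, CDCA8 and BIRC5 lay near 0 and CENPE, CENPF and MKI67 far below it. These 6 genes were picked by their values, and other members lay between them, such as BUB1 at -1.02 and TTK at -0.31. All 6 are known for expression in G2 phase and mitosis. Genes picked by their values cannot show the part of the cell cycle, which was not tested.

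The clones, each with 1 array per condition, did not contribute equally. CL4, CL9 and CL46 had median differences over the members of -0.19, -0.74 and -0.45, against -0.04, -0.06 and -0.04 over all genes. CL9 had the lowest difference in 24 of 39 members (61.5%), against 39.0% of all genes, and in 9 of the 11 called members. The induced array of CL9 also had the lowest median ratio over probe sets (0.898, against 0.957 in CL4 and 0.998 in CL46), and CL9 had the largest change of the ACTB 3′ to 5′ difference (0.59). The part of these in the clone difference was not tested. In all 3 clones, 24 of 39 members (61.5%) lay below 0, against 22.4% of all genes, and 2 members lay above 0. The 24 include all 11 called members, and a call made on these same arrays favours such genes.

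Members that span more of the genome tended to have lower differences. Span was taken as a feature after the values were seen, over members chosen with earlier results known. Genomic span is the distance from start to end of a gene in RefSeq (GRCh38.p14), introns included. The Spearman correlation of span with the log2 difference was -0.60 over 39 members, and -0.66, -0.46 and -0.52 in CL4, CL9 and CL46. Over 19735 genes it was -0.12. The median span was 58.0 kb (26.3 to 92.5) in the 11 called members and 22.4 kb (4.05 to 70.1) in the 28 others. CENPE, the lowest member, was also the longest, and ZWINT, the shortest, differed by -0.24. Several members went against this order. TPX2 gave 0.15 at a span of 62511 bases, near that of ASPM and CENPF, and MKI67, the third lowest member, spans only 29765 bases. KNL1, CENPK and BUB1B, at 70094, 67545 and 60055 bases, were not called. The median spans by call rest on the same differences as the correlation and add no second result. The points share the same 6 arrays, so the correlation is a description of these arrays, and the part of gene length was not tested.

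**Figure D4:**
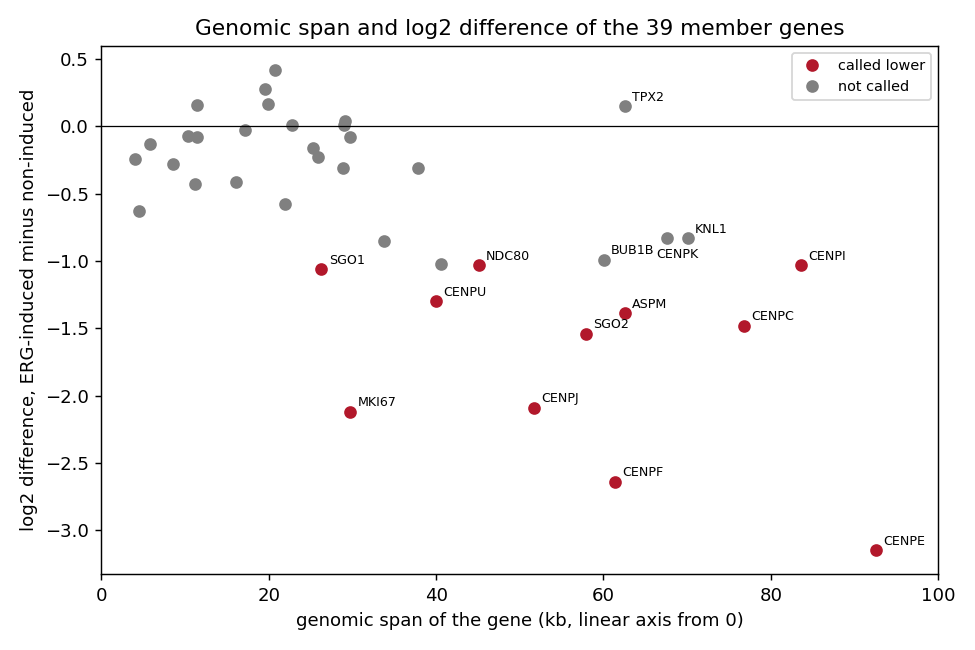
The log2 difference of ERG-induced minus non-induced arrays (y axis) is plotted against genomic span in kb (x axis) for the 39 measured members, red where the gene was called lower. The 11 red points lie between 26.3 and 92.5 kb, and the members below 20 kb lie between -0.63 and 0.28.

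Other genes of the pathway and its neighbours are given by list, to be read against the 6.32% of all genes called lower, and differences between these lists were not tested. Of 25 further kinetochore and checkpoint genes, 4 (16.0%) were called lower and 0 higher, with a median of -0.14. They were KNTC1 (-1.40) and ZWILCH (-1.19), subunits of the RZZ complex that builds the corona, and CKAP5 (-1.14) and CLASP2 (-1.16), which act on microtubule plus ends. The RZZ subunit ZW10 gave -0.70 and was not called. Of 20 genes of the anaphase-promoting complex and its regulators, the target of the checkpoint, 2 (10.0%) were called lower and 0 higher (median -0.29), the subunits ANAPC4 (-1.21) and CDC27 (-1.16), and the activator CDC20 gave 0.13.

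Of 18 genes of mitotic entry and its transcription factors, 2 (11.1%) were called lower and 0 higher (median -0.14), the centrosome kinase NEK2 (-1.10) and the DREAM subunit LIN54 (-1.46). LIN54 rests on 1 probe set. The other DREAM subunits listed, LIN9, LIN52 and LIN37, gave 0.89, 0.44 and -0.39 and were not called. The value of LIN9 (SE 0.53) averages 3 probe sets, of which 1 was called lower and 1 higher, and its groups overlapped. FOXM1 gave -0.16, and cyclin B genes CCNB1 and CCNB2 gave -0.55 and 0.64, none of them called. In cohesin and condensin, the complexes that hold and fold the chromatids, 9 of 24 genes (37.5%) were called lower and 0 higher (median -0.74), with SMC4 at -1.73, NIPBL at -2.18, NCAPG at -1.47 and SMC3 at -1.29 as the called genes of smallest p. Of 13 listed erythroid markers 7 were measured, and 1 (14.3%) was called lower and 0 higher (median 0.26), the transferrin receptor TFRC (-1.67). Only 3 of the 7 lay below 0, and the markers not called ran from -0.93 in ALAS2 to 0.71 in KLF1. FOXM1, CCNB1, CCNB2, CDC20, ZW10, LIN9, LIN37, LIN52, ALAS2 and KLF1 were named after their values were seen.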

How the data were processed

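The 6 Affymetrix arrays were processed with GeneSpring by the authors. The deposited values are linear ratios, with each of 54675 probe sets set against its own median across arrays (median 1, tolerance 1e-05, in 50737 probe sets and below 1 in 3938). Of the scaling before that step the methods and labels say nothing, and signal over background is unknown. The number of arrays limits the precision. All columns were mapped to a sample (0 were not).

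The 62 control probe sets served for RNA quality alone. Of the remainder, 41091 carried 1 symbol in the platform annotation, 1801 several and 11721 none, and only those with 1 symbol entered gene means. All ratios were above 0, so log2 was taken of the deposited ratios with no pseudocount and no filter. The comparison used limma 3.58.1 (R 4.3.3), with lmFit and eBayes without a trend, two-sided, over all genes or all probe sets, after the comparison had been tested on simulated data. Groups came from the sample labels, and the clone number pairs the arrays because same-numbered arrays come from the same clone. Across genes, the 2 arrays of a clone deviated from their groups with correlations of 0.04, 0.05 and 0.03 (CL4, CL9 and CL46).

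The members, the other gene lists and the tests were chosen with earlier results of these data known. Every member is accounted for. Arrays are given for called members and for a member with a probe set call that its gene mean lacks. Of each other list the called genes are named, at most 4 of the smallest p. Protein length had been planned as a feature of the members. It was not analysed here, and genomic span was taken in its place after the values were seen. Alternatives tried were a block for the clone, centring, quantile normalization, no moderation, the median over probe sets, omission of probe sets with a median below 1 or with the suffix _x_at or _s_at, and omission of each clone.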

Additional observations from a re-analysis of the deposited data

How the results depend on the processing

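Of the 11 members called lower, CENPC, CENPE, CENPF and CENPJ kept the call under all 10 alternatives, and 0 members were called higher under any. With the clone as a replicate block, 10 members and 22 member probe sets were lower, and CENPI alone lost its call. With centred arrays or quantile normalization 8 members were lower (CENPI, NDC80 and SGO1 lost). MKI67 had no value without _x_at and _s_at probe sets, where 32 members remained and 9 were lower. With each clone left out in turn, 8 to 9 members and 11 (without CL46) to 18 (without CL4) of the member probe sets were lower, against 23 with all clones, and 13 were lower without CL9. The median difference of the members lay between -0.57 and -0.24. The causes were not tested.

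Centring moved the median of all genes by 0.10 and quantile normalization by 0.13. Relative to it the members' median was -0.38 in the arrays as deposited, -0.38 with centring and -0.35 after quantile normalization. The share of lower among all gene calls was 67.0%, 57.2% and 52.1%. No member passed an adjusted p of 0.05 in either scaling (lowest 0.182 and 0.164).

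Among members never called, 17 differences changed sign. With centring they were 0.02 in PLK1, 0.03 in CENPQ, 0.03 in SPC24 and 0.08 in CDCA8. After quantile normalization they were 0.05 in AURKB, 0.04 in PLK1, 0.04 in CENPQ, 0.05 in SPC24 and 0.07 in CDCA8. With each clone left out in turn, the range was -0.58 (without CL4) to 0.03 (without CL9) in CENPA, -0.54 (without CL46) to 0.07 (without CL9) in CENPN, -0.32 (without CL46) to 0.23 (without CL9) in AURKB, -0.53 (without CL4) to 0.30 (without CL46, and 0.01 without CL9) in SPC24, -0.09 (without CL4) to 0.11 (without CL9) in AURKA, and -0.39 (without CL4) to 0.29 (without CL9) in INCENP. CENPO gave -0.07 without CL9. Of the other differences, 346 kept direction and side of the thresholds, 17 lost the call and 3, all of KNL1, gained it.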
